A study of Drosophila melanogaster with 24 samples.

Results

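Among the microRNAs of the fruit fly Drosophila melanogaster, those with a number of 2000 or more in their names were examined as 1 set, from miR-2279 to miR-9388. Numbers are given to microRNAs in order of discovery, so these are the most recently named of the table. The set was chosen by name alone, both arms of each hairpin included, and held 178 of the 466 mature microRNAs listed, from 103 hairpins. Small RNA had been sequenced from hemolymph, the fluid that circulates through the fly's body cavity, and from body tissue of flies labelled male at an age of 2 days (young) or 25 days (old). There were 4 young body, 8 old body, 4 young hemolymph and 8 old hemolymph libraries, and no genotype, strain or treatment is given. Each old group joins libraries 1 to 4, which carry the letter O in their labels, with libraries 5 to 8, which carry R, and the labels do not say what the letters stand for. The labels do not say whether libraries came from separate flies or pools, and a p-value then covers no more than the variation among these libraries, part of which may be technical. Hemolymph and body RNA were extracted with different kits, so an effect of the kit cannot be told apart from one of the compartment.

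A microRNA is cut from a hairpin-shaped transcript, and either arm of the hairpin (named 5p and 3p) can become the mature strand that guides repression of messenger RNAs. MicroRNA genes named late in flies were mostly found by deep sequencing, after the abundant and conserved ones were known. Many of them lie in introns or exons of other genes, and evolutionarily young microRNAs are known as weakly expressed, with several active in the testis. Some, called mirtrons, are short introns that fold into a hairpin after splicing.

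These microRNAs were rare in every library. Together they took 607 of 3358792 microRNA counts, or 0.0181%. The 160 names numbered under 900 or without a number took 82.6%, and the 128 names numbered from 900 up to 2000 took 17.3%. Of the 178 members 75 had at least 1 count over the 24 libraries (42.1%). The share with a count was 90.0% of names under 900 and 85.9% of the intermediate names. Just 9 members (5.06%) reached 10 counts, against 78.1% and 59.4% of those lower classes. The leading member, miR-2535b-3p, had a total of 120 counts, and 125 names of the table had more. For each of the 103 members without a count, 0 of 3358792 counts allows a level of up to 0.893 CPM (counts per 1000000 microRNA counts; the limit is 3 counts over all libraries). Such limits cover counting error only, because the reads carried no molecular identifiers.

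**Figure D1:**
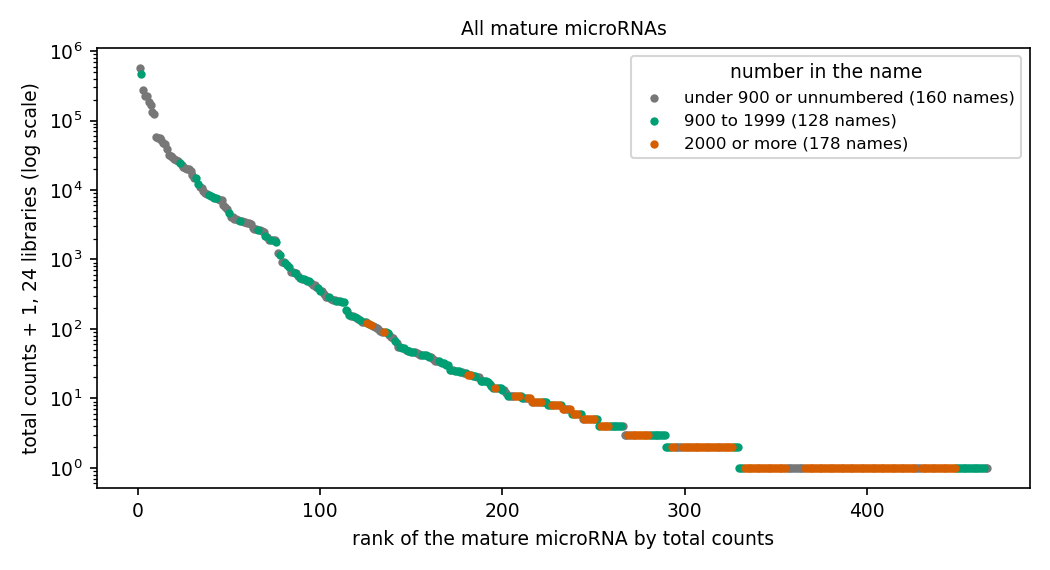
Total counts plus 1 over the 24 libraries (log axis) of all 466 mature microRNAs, ordered by rank and coloured by the number in the name. The 178 names numbered 2000 or more start at 120 counts, and 103 of them lie at the bottom with no count.

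Library depth sets what could be seen. Library totals ran from 136692 to 242935 counts in body and from 52792 to 275974 in hemolymph, so that 3 counts correspond to 12.3 to 21.9 CPM in a body library and to 10.9 to 56.8 CPM in a hemolymph library. The ovary microRNAs miR-318-3p and miR-989-3p were present in libraries labelled male, with miR-318-3p at 64.0, 6660, 68137 and 54850 CPM in young body libraries 1 to 4 and at 17907 CPM in old hemolymph library 4. Muscle microRNAs (miR-1-3p with miR-133-3p) took 0.153% to 0.447% of counts in body and 0.00267% to 0.0393% in hemolymph. Young hemolymph libraries 1 and 2 differed from 3 and 4, with 15.7% and 19.0% against 28.7% and 30.7% of counts on the hemocyte and fat body microRNAs miR-8-3p, miR-275-3p and miR-305-5p. The 40 testis microRNAs listed, 27 of them with a count, took between 0.00165% and 0.0268% of counts in any library.

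As a set, the members took a larger part of the counts in hemolymph than in body in old flies, while the young groups overlapped. Their summed level was 117, 88.8, 127 and 214 CPM in young body libraries 1 to 4, and ran from 118 CPM through a median of 151 to 205 CPM in old body. It was 171, 120, 232 and 303.3 CPM in young hemolymph libraries 1 to 4, and ran from 248 CPM through a median of 274 to 398 CPM in old hemolymph. The old groups did not overlap, with means of 302 ± 58.5 CPM in hemolymph and 153 ± 26.95 in body (SD, n = 8 each). The young groups did overlap, at 206 ± 79.3 CPM in hemolymph and 137 ± 54.0 in body (n = 4 each). In bulk samples, fewer cells of a type and less RNA per cell cannot be told apart. The O-coded old libraries lay above the R-coded ones in body, at 155 to 205 against 118 to 146 CPM, and overlapped them in hemolymph, at 254 to 398 against 248 to 281 CPM. The other classes also divided the counts differently between compartments: names under 900 took 97.4% ± 0.464 in old hemolymph and 73.8% ± 1.59 in old body, and names from 900 up to 2000 took 2.60% ± 0.461 and 26.2% ± 1.59. A larger share in hemolymph was thus not particular to the members. No p-value is given for such sums, since the members were grouped with results of these data known.

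The number of members seen followed the same order. At the depth of the shallowest library (52792 counts), 9.18 ± 0.630 members would be expected with a count in an old hemolymph library and 4.92 ± 0.855 in an old body library, without overlap (8.19 to 10 against 3.81 to 6.14). For the young libraries the values were 7.51 ± 2.50 and 4.84 ± 2.20, with overlap. The lower classes ran the other way at equal depth. Names under 900 gave 92.4 ± 2.54 in old hemolymph and 104 ± 1.03 in old body, and names from 900 up to 2000 gave 39.8 ± 5.003 and 50.9 ± 1.86. Without correction for depth the difference between compartments was small, at 12.0 ± 2.78 members counted per old hemolymph library and 10.4 ± 3.34 per old body library. Most of those were seen through a single read: 61 of the 96 detections in old hemolymph and 52 of the 83 in old body rested on 1 count. With 3 or more counts asked for at full depth, the old groups had the same mean of 2.88 members per library, and young hemolymph had fewer (1.5) than young body (2.5). That bar is not equal between compartments. On average 3 counts correspond to 40.3 CPM in old hemolymph and 18.6 in old body, and to 31.4 and 15.0 in the young groups.

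**Figure D2:**
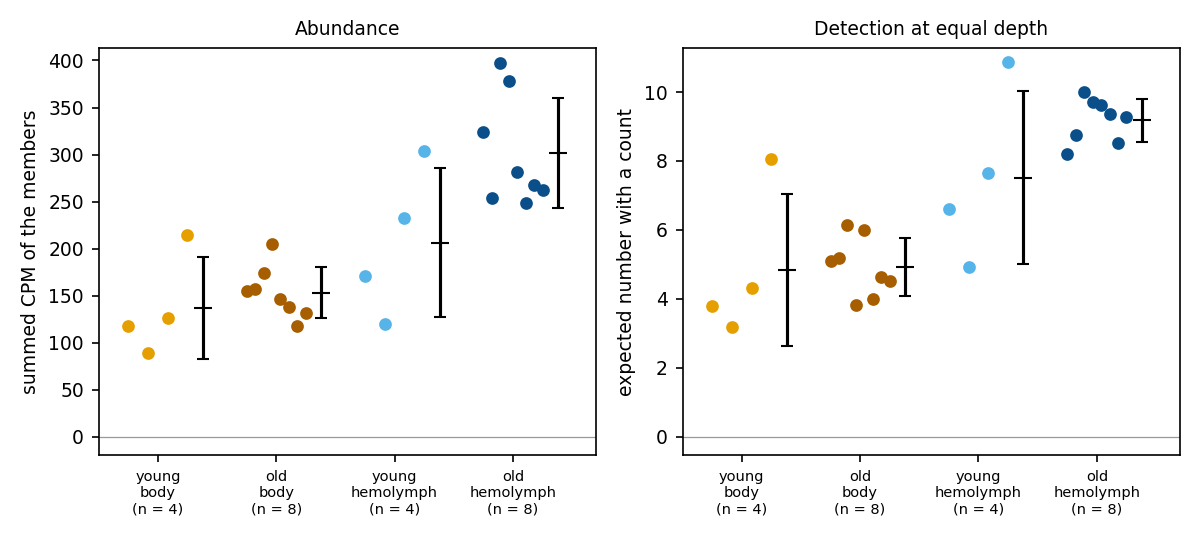
Left, summed CPM of the 178 members per library; right, the number of members expected with a count when every library is brought to 52792 counts. Points are libraries, bars are mean ± SD; the 8 old hemolymph libraries, at 248 to 398 CPM, lie above all 8 old body libraries, at 118 to 205 CPM.

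The 3 leading members held 53.0% of the set's counts, and each had its own pattern. Without them the rest summed to 148 ± 20.4 CPM in old hemolymph (107 to 182) and 53.2 ± 19.4 CPM in old body (20.5 to 78.2), again without overlap. In young libraries the rest summed to 141 ± 61.0 and 57.6 ± 41.7 CPM.

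The member with the most counts, miR-2535b-3p, was found mainly in body, with 2 reads in all from young hemolymph. Its hairpin lies on the X chromosome (dm6, 21298275 to 21298345, minus strand) in an intron of Abca3, a gene named for the ABC transporter family. It had 9, 8, 9 and 14 counts in young body libraries 1 to 4, and 3 to 11 counts (median 8) in old body. Young hemolymph libraries 1 to 4 held 0, 1, 0 and 1 counts, and old hemolymph libraries held 1 to 3 (median 2). All 12 body libraries thus had more reads than any young hemolymph library. As levels, young body was at 48.9 ± 6.01 CPM (n = 4), old body at 47.1 ± 20.2 (n = 8), old hemolymph at 26.8 ± 9.90 (n = 8) and young hemolymph at 4.52 ± 6.83 (n = 4). The young groups did not overlap in CPM, and the old groups did. Summed over the young libraries, 40 of 808110 body counts against 2 of 571040 hemolymph counts gave a ratio of 14.1, with a 95% exact counting interval of 3.66 to 121.

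The second member, miR-4919-3p, was found in hemolymph of old flies and not in that of young flies. No read of it was counted in any of the 4 young hemolymph libraries, although 2 of these were deeper than any old hemolymph library. All 8 old hemolymph libraries held it, with 3 to 9 counts (median 6). Over the groups, 47 of 656962 counts in old hemolymph stood against 0 of 571040 in young hemolymph. With 3 counts over the whole young group (5.25 CPM) as the floor, miR-4919-3p was 13.6-fold higher in old hemolymph. That ratio leaves out the counting error of the 47 reads. Body libraries of both ages held it, with 1, 0, 6 and 6 counts in young body libraries 1 to 4 and 4 to 13 counts (median 5) in old body. Its mean level was 80.9 ± 43.1 CPM in hemolymph of old flies, 40.5 ± 21.4 in their bodies and 15.1 ± 14.7 in bodies of young flies. In old hemolymph it was at 72.6 to 162 CPM in the O-coded and 24.8 to 93.5 CPM in the R-coded libraries. The body values overlapped between ages, and the old values overlapped between compartments.

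In the young body libraries miR-4919-3p was low where the ovary microRNA miR-318-3p was low (libraries 1 and 2) and higher where that was high (libraries 3 and 4). The ovary microRNA miR-989-3p did not follow this order, at 2418, 5322, 3542 and 4236 CPM in young body libraries 1 to 4. In old body the peaks did not coincide. There miR-318-3p was highest in library 5 (27895 CPM), with miR-4919-3p at 29.2 CPM. miR-4919-3p was highest in library 4 (88.8 CPM), with miR-318-3p at 21136 CPM. Old hemolymph library 4, which held the most miR-318-3p of its group, also had the highest miR-4919-3p level, 162 CPM. Young hemolymph library 4 held 1906 CPM of miR-318-3p, the most of its group, with 0 counts of miR-4919-3p. Without old hemolymph library 4 the age difference described below kept its call (edgeR adjusted p = 0.000501). The part of ovary RNA in the body or hemolymph values was not tested.

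The mir-4919 hairpin lies on chromosome 2R (15945887 to 15945946, plus strand, 60 bases) in an intron of Cyp4aa1, a cytochrome P450 gene. The outer ends of its annotated arms are 0 bases from both ends of an annotated intron, the layout of a mirtron. The 5p arm had 5 counts in all, 2 and 1 in old hemolymph libraries 5 and 7 and 2 in young hemolymph library 4, and none in body.

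The third member, miR-4951-5p, was higher in hemolymph at both ages. Young body libraries 1 to 4 held 6, 2, 1 and 3 counts and young hemolymph libraries 1 to 4 held 10, 11, 4 and 5. Old body libraries held 1 to 3 counts (median 2) and old hemolymph libraries 0 to 10 (median 3.5). In CPM, young hemolymph (60.6 ± 15.1, 39.9 to 72.2) lay above young body (15.1 ± 11.7, 5.06 to 32.0) without overlap. Old hemolymph (46.3 ± 35.4) and old body (12.3 ± 6.89) overlapped through old hemolymph library 2, which had 0 counts. The mir-4951 hairpin lies on chromosome 3R (21316716 to 21316865, plus strand) inside an exon of Hsromega, a heat-inducible nuclear long noncoding RNA. Fragments of a host transcript and reads of the microRNA cannot be told apart where a hairpin lies in an exon.

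**Figure D3:**
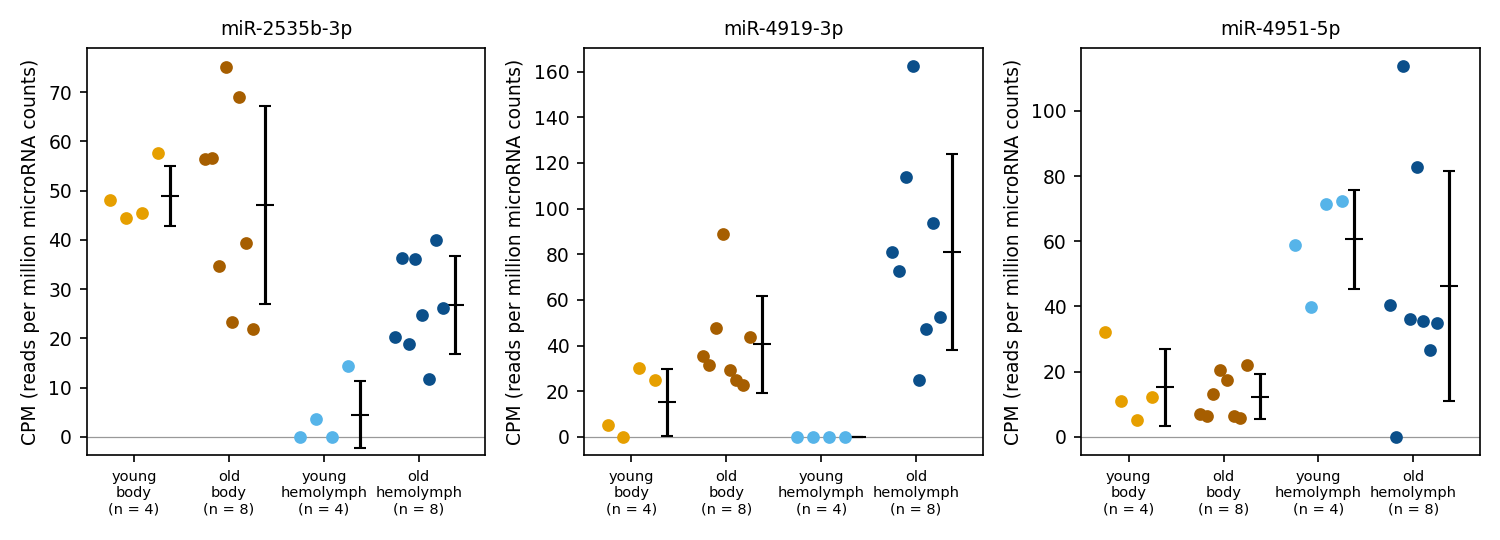
Level of the 3 leading members in each library, in CPM of all microRNA counts; points are libraries and bars are mean ± SD. miR-2535b-3p is at 0 to 14.4 CPM in young hemolymph against 44.4 to 57.6 CPM in young body, miR-4919-3p is at 0 in all 4 young hemolymph libraries, and miR-4951-5p is higher in hemolymph.

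The first comparison of groups asked which of these microRNAs differ between hemolymph and body. Counts of all microRNAs were tested with edgeR's quasi-likelihood test, adjusted over every name tested. At the filter's usual minimum count of 10, miR-4919-3p and miR-4951-5p were the members that could be tested, among 124 names. miR-4951-5p passed this filter through hemolymph libraries alone, and miR-4919-3p through old libraries alone. The groups where they were high thus decided that they were tested, and their calls are not independent of that choice. In young flies both passed, against 73.4% of all names. miR-4951-5p was higher in hemolymph (log2 fold change 1.96 ± 0.60 SE, adjusted p = 0.00511, higher in 4 of 4 libraries). miR-4919-3p was lower (edgeR adjusted p = 0.00478), with 0 of 571040 counts against 13 of 808110. With 3 counts as the floor for young hemolymph the ratio of summed counts was 3.06, which leaves out the counting error of the 13 reads. In old flies miR-4951-5p was higher (1.77 ± 0.48, adjusted p = 0.00171), 1 call of 2, against 82.3% of all names. miR-4919-3p was at 0.81 ± 0.39 in hemolymph against body and did not pass (adjusted p = 0.0577). As the share called was high across the table, 2 of 2 and 1 of 2 are no result about these microRNAs as a group.

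With the minimum count lowered to 3, miR-2535b-3p entered the test and was lower in young hemolymph (-3.58 ± 0.61, adjusted p = 1.3e-05, edgeR). All 3 members then passed in young flies, against 70.1% of 164 names, and all 3 in old flies, against 77.4%. In old flies miR-2535b-3p was lower in hemolymph (-0.79 ± 0.35, adjusted p = 0.0467) and miR-4919-3p higher (0.90 ± 0.40, adjusted p = 0.0453). Those old calls were weak: across the other settings of this fit, leaving out single libraries of any group included, adjusted p ran from 0.00298 to 0.33 for miR-2535b-3p and from 0.00309 to 0.254 for miR-4919-3p. The young calls are less firm than their p-values when few libraries remain. Without young libraries 1 and 2 of both compartments (chosen after seeing the data), miR-2535b-3p stood at -2.20 (adjusted p = 0.0673) and the call of miR-4919-3p was lost (adjusted p = 0.0625). Without young libraries 3 and 4 the calls of miR-4919-3p (adjusted p = 0.292) and of miR-4951-5p (1.27, adjusted p = 0.131) were lost. The exact permutation test, two-sided and adjusted over 210 names, called 0 names (0%) in young flies, where 4 against 4 libraries cannot give a p below 0.0286. It gave that smallest p for miR-2535b-3p, miR-4951-5p and miR-4940-3p (adjusted p = 0.0674 each). For miR-4919-3p, which was also at 0 in young body library 2, the exact permutation test gave p = 0.143 (adjusted p = 0.24). In old flies miR-4951-5p did not pass it (adjusted p = 0.148).

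With no filter beyond 1 count, all 75 counted members were tested among 329 names. In young flies 4 passed, against 35.9% of names, with miR-4940-3p added to the 3 above (lower in hemolymph, adjusted p = 0.0296, edgeR). In old flies 10 passed, all higher in hemolymph, against 18.8% of names called higher. They were miR-4951-5p, miR-4956-3p and 8 members with 4 to 9 counts each, of which miR-4914-5p (0 counts in old body, 7 in old hemolymph) had the smallest adjusted p, 0.00141. Calls on so few reads rest on the spread estimated for the whole table. The exact permutation test did not call miR-4956-3p in old flies (adjusted p = 0.104). The old calls of miR-2535b-3p (-0.89, adjusted p = 0.0695) and miR-4919-3p (0.81, adjusted p = 0.126) were not made without a filter.

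The second comparison concerned age within each compartment. At the minimum count of 10 no member could be tested in either compartment, where 48.7% of the names tested in body and 46.5% of those in hemolymph passed. At a minimum count of 3, miR-4919-3p was higher in old than in young hemolymph (edgeR adjusted p = 0.000204, counted in 8 of 8 old and 0 of 4 young libraries), 1 call of 2 members tested, against 40.7% of 108 names. That call held in all 20 other settings of this fit, with edgeR adjusted p from 5.74e-06 to 0.0292. Alternatives to the fit at a minimum count of 3 were added after seeing the data. miR-4919-3p passed that filter through the old libraries alone, and every setting shares its 0 counts in young hemolymph. Their agreement is therefore not separate support. The exact permutation test gave p = 0.00202, the smallest possible for 4 against 8 libraries (adjusted p = 0.0117 over 156 names, of which 26.9% passed). It also called miR-2535b-3p, with 17 of 656962 counts in old and 2 of 571040 in young hemolymph (exact permutation p = 0.00404, adjusted p = 0.018). That ratio of summed counts was 7.39, with a counting interval of 1.75 to 65.9. The level of miR-4951-5p in hemolymph did not pass (-0.19 ± 0.56 for old against young, adjusted p = 0.796), and the SE leaves room for changes of either sign. Tested without a filter, 1 of 55 members, again miR-4919-3p, passed against 15.9% of names, while miR-2535b-3p did not (2.30, edgeR adjusted p = 0.0728). In a fit of all 24 libraries miR-4919-3p passed, against 37.9% of names.

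In body none of the 3 members tested at the minimum count of 3 passed with age, against 40.6% of 155 names. The log2 fold changes, old against young, were -0.13 ± 0.31 for miR-2535b-3p (adjusted p = 0.748), -0.34 ± 0.54 for miR-4951-5p (adjusted p = 0.629) and 1.29 ± 0.55 for miR-4919-3p (adjusted p = 0.0775, edgeR). The last passed with DESeq2 (1.41, adjusted p = 0.0348), without young body library 3 (1.72, adjusted p = 0.0393) or 4 (1.80, adjusted p = 0.0498), without both (3.35, adjusted p = 0.00662), and in the fit of all 24 libraries at the minimum count of 10 (1.39, adjusted p = 0.0391, against 36.3% of names). These 2 young body libraries hold 12 of the group's 13 reads of it.

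Whether the age change itself differed between compartments was tested as a difference of differences. The change of miR-4919-3p with age was larger in hemolymph than in body (edgeR adjusted p = 0.012), 1 call of 2 members tested, against 14.5% of 124 names. This fit had the minimum count of 10, which miR-4919-3p passed through old libraries alone, mostly of hemolymph. The call is therefore not independent of the filter. At the minimum count of 3 the same held for miR-4919-3p (adjusted p = 0.0118) and for miR-2535b-3p (2.79 ± 0.73, adjusted p = 0.0144), 2 calls of 3, against 12.2% of 164 names. The call of miR-2535b-3p was lost with no filter beyond 1 count (2.66, adjusted p = 0.0777), without young hemolymph library 1 (2.15, adjusted p = 0.103), without library 2 (2.86, adjusted p = 0.0542) and without young libraries 1 and 2 of both compartments (1.41, adjusted p = 0.469). The call of miR-4919-3p was lost when young libraries 1 and 2 (adjusted p = 0.0684) or 3 and 4 (adjusted p = 0.351) were left out. With O-coded old libraries alone it passed at the minimum count of 10 (adjusted p = 0.0403), and with R-coded ones alone no member could be tested. For miR-4951-5p the difference was -0.19 ± 0.86 (adjusted p = 0.917).

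Another 6 members had 10 to 21 counts. miR-4986-3p, from a hairpin in a coding exon of CG6749 (3L), had 3 counts in young body, 4 in old body, 5 in young hemolymph and 9 in old hemolymph. In old flies it was counted in 6 of 8 hemolymph and 2 of 8 body libraries. The exact permutation test called it higher in old hemolymph (p = 0.0232, adjusted p = 0.0358). It was 1 of 3 members called of 9, against 71.0% of 210 names. With no filter beyond 1 count edgeR did not call it (log2 fold change 1.87, adjusted p = 0.0502). miR-9370-5p, in an untranslated exon of Amun (X), had 12 of its 21 counts in old hemolymph, 7 of them in library 1. miR-2279-5p, in an intron of MFS17 (2R), had 13 counts, with 1, 4, 4 and 4 in young body, old body, young hemolymph and old hemolymph.

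miR-4940-3p, in an untranslated exon of nwk, a regulator of synaptic growth, was seen mostly in body. It was counted once or more in all 4 young body libraries (1, 1, 2 and 2) and in 3 old body libraries, and once in hemolymph. miR-4956-3p had the opposite pattern, with 1 count in body and 9 in hemolymph. Its hairpin lies in a coding exon of Sxl, the switch gene of sex determination, and its 5p arm was counted 2 times in body and 5 times in hemolymph. miR-4969-5p, in an intron of CASK, a scaffold protein of synapses, had 2 counts in each body group, 4 in young and 2 in old hemolymph. Depth over the groups was 2130790 counts in body and 1228002 in hemolymph.

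The remaining 66 members with a count had 9 counts or fewer, 200 in all, and 28 of them a single count. Between compartments, 31 members had counts in both, 20 in body and not in hemolymph, and 24 in hemolymph and not in body. The same split was not made for the other names. The 28 members with a single count can fall in only 1 compartment, so 20 and 24 are no result about these members. The most frequent of the body group was miR-4952-5p, from a hairpin in a coding exon of the synaptic adhesion gene Nrx-1, with 7 counts over 6 libraries. In the hemolymph group miR-4914-5p, in an intron of CG31689, led with 8 counts over 6 libraries, 1 young and 5 old. A count of 0 allows a level of up to 1.41 CPM over the body libraries and 2.44 CPM over the hemolymph libraries.

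**Figure D4:**
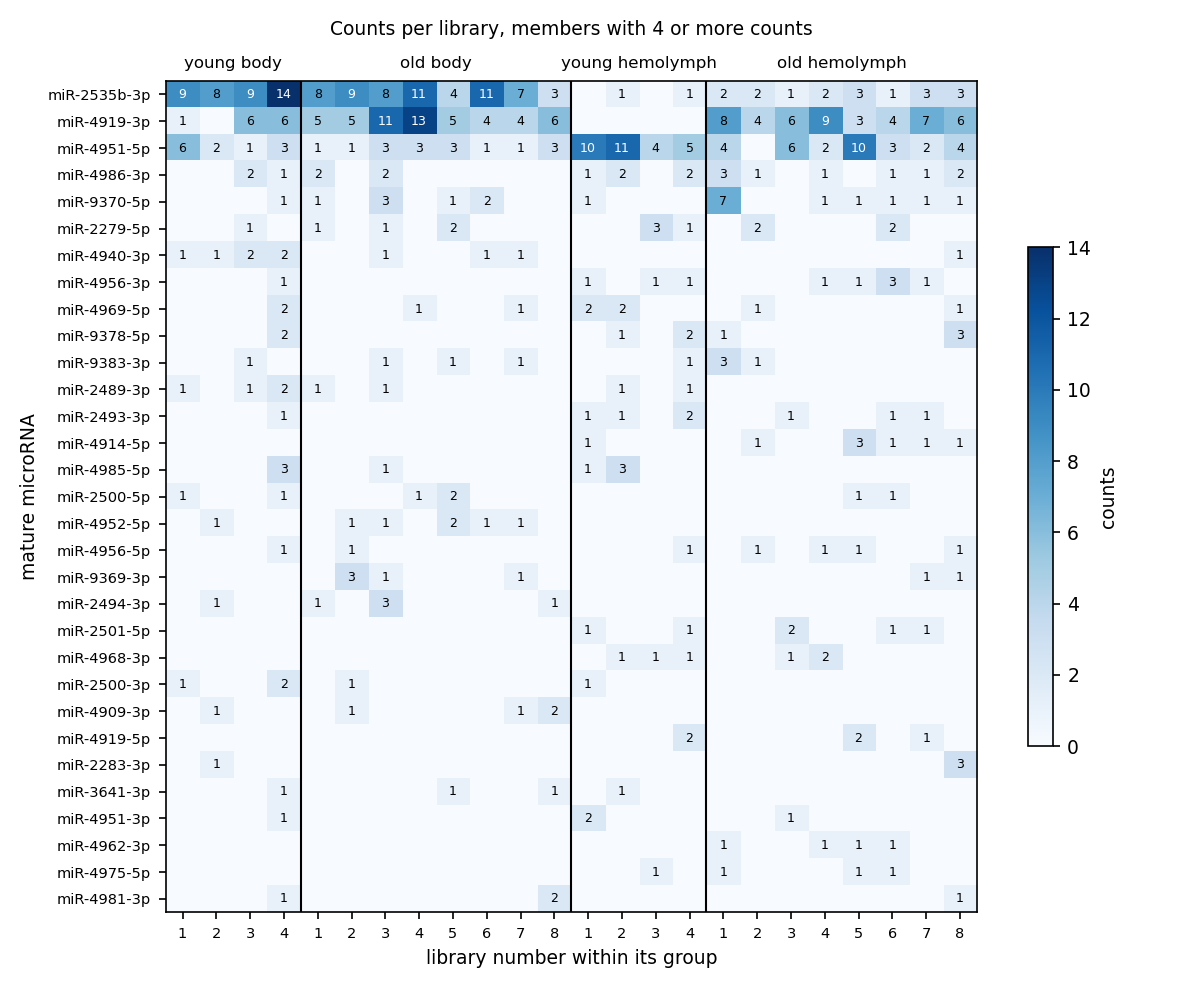
Counts of the 31 members with 4 or more counts (rows, by total) in each of the 24 libraries (columns, by group and library number); empty cells are 0. The first 3 rows hold 322 of the 607 counts, and miR-4919-3p is empty throughout young hemolymph.

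Arms and neighbours were described next. Of 75 hairpins with both arms listed, 13 had counts on both arms, 35 on 1 arm and 27 on none. The arm with fewer counts took 7.91% of their counts, against 3.46% over 134 other hairpins, where both arms were counted for 109. At totals this low, the arm with fewer counts is often set by single reads. The 3p arms (90 members) took 381 counts and the 5p arms (88 members) 226.

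Some members with few or no counts lie near other microRNA genes. mir-2498 had 0 counts on either listed arm, although it lies within 588 bases of mir-312 (56251 counts) and within 749 bases of mir-311 (18764 counts) on the same strand of 2R. Closer on that strand lie mir-991 (380 bases, 13 counts), mir-313 (449 bases, 787 counts) and mir-992 (494 bases, 0 counts). mir-4969 lies 183 bases from mir-999 on 3R, which had 14956 counts against its 10. mir-2499 (0 counts) and mir-9369 (7 counts) lie among mir-972 to mir-979, a group of testis microRNAs on the X chromosome, none of which had more than 24 counts. miR-9369-3p had its counts in old body libraries 2, 3 and 7 (3, 1 and 1) and in old hemolymph libraries 7 and 8 (1 each). mir-1007, the nearest microRNA gene to mir-2535b at 1826 bases, had 30 counts.

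The places of the hairpins in the genome were set beside those of earlier named microRNAs. Coordinates were found for 102 of 103 hairpins. Of these 49 lie in introns of protein-coding genes (48.0%), 18 overlap coding exons (17.6%), 13 untranslated exons (12.7%) and 3 exons of noncoding RNAs (2.94%), with 19 outside annotated genes of their strand. Overlap with a coding exon was found for 1 of 67 hairpins numbered from 900 up to 2000 and 0 of 84 hairpins of the lowest class. Exons of noncoding RNAs held 35 of those 84 (41.7%), the layout of many classical microRNA genes. These shares are given as a description, with no test.

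Within the set, hairpins with reads were found in every kind of region. At least 1 count was found for 11 of 18 hairpins in coding exons, 10 of 13 in untranslated exons, 29 of 49 in introns and 9 of 19 outside genes. The intron group took 349 counts, of which mir-2535b and mir-4919 made up 238. The matched hairpins mir-4919, mir-2500 and mir-2497 had annotated arms that reach both ends of an annotated intron, within 3 bases, with 118, 12 and 0 counts. mir-2500 and mir-2497 are among the 18 counted above in coding exons, because overlap with a coding exon of any transcript took precedence over an intron. Among hairpins numbered from 900 up to 2000 such arms at both intron ends were found for 8 of 67, with 2874 counts. A hairpin with 1 annotated arm could not meet this rule, and 28 member hairpins had 1 arm listed. The layout of a mirtron may thus be more frequent than these counts in either class. By chromosome the X held 26 member hairpins, 16 of them with a count, and 3R held 25, 15 with a count.

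**Figure D5:**
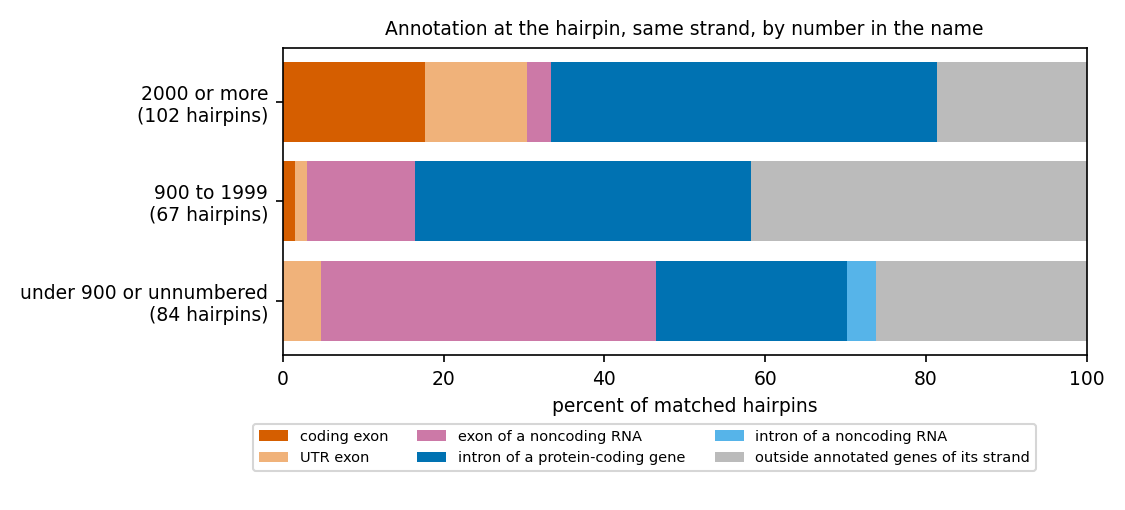
Percent of matched hairpins in each kind of annotated region on the same strand, for the 3 classes of number in the name. Coding and untranslated exons make up 17.6% and 12.7% of the 102 hairpins numbered 2000 or more, while noncoding RNA exons make up 41.7% of the 84 hairpins of the lowest class.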

How the data were processed

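The authors deposited 1 table of 476 rows, each a mature microRNA with its hairpin, holding whole-number counts and RPM for each library. Bowtie 1.0, edgeR and the dm6 genome are named in the submitters' processing notes. How reads were trimmed, and how those with several matches were counted, is not given in the sources used here. RPM values as deposited equalled count over column total within 0.005, and the deposited counts were used. Where a name stood on several hairpins its best-counted row was used; 10 rows were dropped in this way, none of them a member. CPM is per 1000000 counts of the 466 names kept.

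Tests used edgeR 4.0.16 in R 4.3.3 (filterByExpr, TMM, quasi-likelihood F test, Benjamini-Hochberg at 0.05 over all names tested). Compartments and the difference of age changes were fitted over all 24 libraries, ages within 12. SE is the absolute log2 fold change over the square root of F. Exact permutation tests used log2(CPM + 1) of names with 10 or more counts. Detection at equal depth is the expected number under hypergeometric sampling. Alternatives included DESeq2 1.42.0. The tests were tried on simulated counts. Hairpin positions came from the Ensembl BDGP6 annotation (dm6), with RefSeq synonyms for names it lacks. Members with 10 or more counts in total, or tested in any comparison, are described in full; other members named were picked with their values in view. The members and lists were chosen with earlier results of these data known. Pairing by number was checked by correlation of deviations from the group mean across microRNAs. Same-numbered young body and hemolymph libraries had r of 0.12 to 0.603, though young body library 3 matched another number better. Old ones had r of -0.322 to 0.122. Across ages, number 4 in hemolymph reached 0.461. Main fits and exact permutation tests used no pairing. The replicate block, an edgeR alternative, gave miR-4919-3p adjusted p = 0.02 between young compartments. For its difference of age changes the block gave adjusted p = 0.0283.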

Additional observations from a re-analysis of the deposited data

Results flagged for a closer look

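For miR-4919-3p the age change differed between compartments (edgeR adjusted p = 0.012 for the difference of differences). It had passed the filter of that fit through old libraries alone, mostly of hemolymph. Reads rose from 0 of 571040 to 47 of 656962 in hemolymph and went from 13 of 808110 to 53 of 1322680 in body.

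One library stood apart from its group in 8 of 41 groups of values examined. In 6 of the 8 every other library was at 0, so that a single read is enough to stand apart, and the usual chance rate of about 1 in 20 groups does not apply to them. miR-4919-3p was at 88.8 CPM in old body library 4, from 13 counts. miR-9370-5p was at 70.8 CPM in old hemolymph library 1, from 7 counts, and it was counted in a single library of young body (library 4, 4.12 CPM) and of young hemolymph (library 1, 5.89 CPM). A lone library with 1 or 2 reads also held miR-2279-5p in young body (library 3, 5.06 CPM), miR-4956-3p and miR-4969-5p in young body (library 4, 4.12 and 8.23 CPM) and miR-4940-3p in old hemolymph (library 8, 8.74 CPM). Young body library 4 is the deepest body library, at 242935 counts.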

How the results depend on the processing

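Limits come mostly from depth, since 9 of 178 members reached 10 counts and 3 could be tested at a minimum count of 3. Calls of members in young hemolymph against body went from 2 to 4 without a filter, 0 by exact permutation and 1 to 2 leaving out single libraries. In old flies 1 call became 2 under upper-quartile factors, summed hairpins or the replicate block (miR-4919-3p 0.84, adjusted p = 0.0315, though the old numbers showed no sign of pairing), 3 at a minimum count of 3 or by exact permutation, 10 without a filter, 0 with O-coded old libraries only, and 0 to 2 leaving out single libraries. miR-4951-5p fell below the filter, and was not tested, without old hemolymph library 3 or 5 and with O-coded libraries only; in the other fits that left out 1 library it passed in both compartment comparisons. By age, body went from 0 to 1 in the fit of all 24 libraries and stayed at 0 to 0 leaving out single libraries; hemolymph went to 1 in that fit, without a filter or at a minimum count of 3, and to 2 by exact permutation. The difference of age changes went from 1 to 2 at a minimum count of 3, with 1 to 1 leaving out single libraries. No member could be tested in the compartment comparisons fitted on their own groups, nor with R-coded old libraries only in the old compartment comparison and the difference of age changes, nor in 14 settings of the age fit in body and 21 in hemolymph. The replicate block changed no other call at the minimum count of 10.

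Relative to TMM, upper-quartile factors moved the median of all names by 0.61 (log2) in the young and 0.48 in the old compartment comparison, and RLE factors by -0.48 and -0.27. The sign for miR-4951-5p in the difference of age changes, never past the threshold, turned to 0.060 under RLE, 0.0078 under library size alone, 0.048 without a filter, 0.20 at a minimum count of 3, 0.067 with DESeq2 and 0.17 with summed hairpins, and ran from -0.91 to 0.37 leaving out single libraries. At a minimum count of 3 it turned to -0.38 under upper-quartile factors and -1.34 without young libraries 1 and 2, and ran from -0.41 to 0.44. Age in body at that minimum turned for miR-2535b-3p to 0.029 under upper-quartile factors and 0.051 with the replicate block (-0.23 to 0.18 leaving out single libraries), and for miR-4951-5p to 0.48 without young libraries 1 and 2 (-0.64 to 0.28). The causes were not tested.

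The summed level fell to 106 CPM in old body without the leading member, and without the leading 3 to 57.6 in young body, 53.2 in old body and 148 in old hemolymph. In place of detection at equal depth, the raw number with a count was 12.5 in young body, 10.4 in old body, 14.2 in young and 12.0 in old hemolymph; with at least 2 counts it was 3.88 in old body, 3.75 in young and 4.38 in old hemolymph; with at least 3 it was 2.5, 2.88, 1.5 and 2.88 in the 4 groups in the first order.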
